A study of Mus musculus with 7 samples.

Results

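RNA recovered by an EZH2 antibody from mouse embryonic stem cells was compared between cells that lack SAFB and its paralogue SAFB2 and cells that lack EZH2. The comparison takes 4 of the 7 libraries of the study: 2 SAFB double knockout libraries (SAFB DKO, genotype safb/2 dko, clone 13 as SAFB DKO 1 and clone 4 as SAFB DKO 2) and 2 EZH2 knockout libraries (EZH2 KO, clone 12 as EZH2 KO 1 and clone 19 as EZH2 KO 2). The 3 wild-type libraries were left out. All 4 lines share the strain CAST/B6 Male Rosa26-RMCE, by its name a male embryonic stem cell line of mixed CAST and B6 origin with a cassette exchange (RMCE) site at the Rosa26 locus. All received doxycycline for 3 days, and the labels do not say what it induced. They grew in DMEM with 15% serum at 37 °C and 5% CO2, and each library is 1 clone, so differences between clones and differences between genotypes are separated only by 2 clones against 2. By the series title the monoclonal antibody, raised against human EZH2, also recognises SAFB. By genotype the EZH2 KO cells lack EZH2 and keep SAFB and SAFB2, whereas the SAFB DKO cells keep EZH2 and lack both SAFB proteins. No total RNA measurement was used, so a difference in the level of an RNA in the cells and a difference in its recovery by the antibody cannot be told apart.

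EZH2 is the catalytic subunit of Polycomb repressive complex 2 (PRC2), which methylates lysine 27 of histone H3 at the promoters of silent developmental genes. Its core partners are SUZ12, EED and the histone chaperones RBBP4 and RBBP7, and JARID2, MTF2, AEBP2, EPOP and PHF19 are accessory subunits of alternative PRC2 forms. SAFB, SAFB2 and the related SLTM are scaffold attachment factors of the nuclear matrix, with a SAP domain that binds DNA and an RNA recognition motif, and SAFB has been reported to prefer purine-rich RNA. In RNA immunoprecipitation followed by sequencing (RIP-seq), RNA that stays bound to a protein is recovered with an antibody and sequenced.

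The counts cover 303889 stranded intervals (features), which were called on pooled wild-type precipitates. A filtered list of 33671 of them and a short list of 10043, all within the filtered list, were deposited beside the counts, with a criterion that no source used here gives. The 270218 features outside the filtered list set the scale between libraries (reference features). Library totals were 7050832 and 8353603 reads in EZH2 KO 1 and 2, and 18738499 and 15812517 in SAFB DKO 1 and 2. Levels are CPM, reads per 1000000 reads of the scaled library. Log2 differences are SAFB DKO minus EZH2 KO, so negative values mean more reads in EZH2 KO, where SAFB is present. Across the features the correlation of log counts was 0.948 within SAFB DKO, 0.877 within EZH2 KO and 0.457 to 0.489 across the genotypes.

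The sequences of 5 abundant features are shown first, 4 that were lower in SAFB DKO and 1 that was higher: the strongest feature of Malat1, long features in the coding sequence of Srrm2 and Rif1, a feature of Xist, and the feature of the structured RNA Rn7sk, which differed in the opposite direction. Each is the central 300 bases of the feature, or the whole feature where it is shorter, given 5′ to 3′ on the transcribed strand of build mm10 and read from GENCODE M21 transcripts. Capitals mark the purine motifs GAAGA and AGAAG wherever they occur, overlaps included, searched on the transcribed strand only.
Malat1, noncoding exon, chr19:5801454-5801753, minus strand: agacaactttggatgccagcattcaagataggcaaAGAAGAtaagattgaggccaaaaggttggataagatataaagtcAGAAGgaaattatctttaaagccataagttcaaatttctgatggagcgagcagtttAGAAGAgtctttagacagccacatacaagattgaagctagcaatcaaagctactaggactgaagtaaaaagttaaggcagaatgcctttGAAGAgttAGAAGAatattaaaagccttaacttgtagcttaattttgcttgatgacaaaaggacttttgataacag
Srrm2, coding exon, chr17:23817745-23818044, plus strand: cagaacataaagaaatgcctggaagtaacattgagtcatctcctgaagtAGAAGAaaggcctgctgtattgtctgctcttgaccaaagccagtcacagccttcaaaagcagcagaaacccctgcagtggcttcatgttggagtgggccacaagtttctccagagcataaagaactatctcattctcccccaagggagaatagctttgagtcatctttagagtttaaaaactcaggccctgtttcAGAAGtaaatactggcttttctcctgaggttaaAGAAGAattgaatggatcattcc
Rif1, coding exon, chr2:52111405-52111704, plus strand: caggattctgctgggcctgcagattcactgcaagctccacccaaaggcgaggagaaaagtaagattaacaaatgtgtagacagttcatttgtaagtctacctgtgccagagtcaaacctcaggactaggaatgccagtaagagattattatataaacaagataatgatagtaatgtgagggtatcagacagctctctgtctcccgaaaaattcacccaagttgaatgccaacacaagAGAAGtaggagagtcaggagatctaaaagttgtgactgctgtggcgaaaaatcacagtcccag
Xist, noncoding exon, chrX:103466631-103466930, minus strand: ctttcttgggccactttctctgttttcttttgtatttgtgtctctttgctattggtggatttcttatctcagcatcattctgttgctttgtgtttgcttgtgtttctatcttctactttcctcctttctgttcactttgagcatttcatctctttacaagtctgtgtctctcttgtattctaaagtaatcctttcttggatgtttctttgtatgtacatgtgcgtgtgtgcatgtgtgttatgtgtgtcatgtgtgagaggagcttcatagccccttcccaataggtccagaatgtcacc
Rn7sk, noncoding exon, chr9:78175327-78175465, minus strand: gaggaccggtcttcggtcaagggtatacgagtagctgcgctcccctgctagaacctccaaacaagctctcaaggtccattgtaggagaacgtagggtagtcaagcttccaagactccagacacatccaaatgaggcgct
Purines made up 61.3% of the Malat1 window, which held 4 GAAGA and 4 AGAAG matches. The Srrm2 window was 52.3% purine with 2 GAAGA and 3 AGAAG matches. The Rif1 window was 58.3% purine with 1 AGAAG match. The Xist window, at 33.0% purine, and the 139 bases of Rn7sk, at 53.2%, held neither motif. Over all 9649 windows of 300 bases that could be read inside tested features, 61.5% held GAAGA or AGAAG. A match is a description of letters, not a binding site.

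The deleted genes were low in the lines labelled for them. Safb stood at 301 and 296 CPM in EZH2 KO 1 and 2 and at 1.40 and 0.592 CPM in SAFB DKO 1 and 2, a log2 difference of -8.18 (SE 0.28, adjusted p = 3.1e-08, edgeR quasi-likelihood test with Benjamini-Hochberg adjustment, as for every adjusted p below). Safb2 stood at 652 and 705 CPM against 2.89 and 0.807 CPM, a log2 difference of -8.47 (SE 0.40, adjusted p = 3.1e-07). Both genes fell to near 0 in SAFB DKO, with no overlap between the groups. Ezh2 went the other way, at 2.39 and 0.148 CPM in EZH2 KO against 141 and 170 CPM in SAFB DKO (log2 difference 6.97, SE 0.44, adjusted p = 3.9e-07). One coding feature of Ezh2, at chr6:47545660-47545938 on the minus strand, had no reads in either EZH2 KO library and 20.3 and 19.8 CPM in SAFB DKO, at least 86.9-fold higher when 3 reads are allowed over the EZH2 KO group. Sltm, the third member of the SAFB family, was not deleted and gave 489 and 552 CPM in EZH2 KO against 193 and 212 CPM in SAFB DKO (log2 difference -1.36, SE 0.13, adjusted p = 7.1e-06). Its exons were higher in SAFB DKO, by 0.66 on the log2 scale, and its introns lower, by -2.28, so that the parts had opposite signs and the intron reads set the sign of the sum.

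Intervals of the short list held a large share of the EZH2 KO reads and a small share of the SAFB DKO reads. Their share of all counts was 24.1% in EZH2 KO 1 and 27.3% in EZH2 KO 2, against 1.84% in SAFB DKO 1 and 2.12% in SAFB DKO 2. The means were 25.7% ± 2.27 (SD, n = 2) and 1.98% ± 0.197 (SD, n = 2), a ratio of 13.0. The 95% exact binomial interval was 24.0988% to 24.162% in EZH2 KO 1 and 27.3155% to 27.376% in EZH2 KO 2, which covers counting error only and is far narrower than the gap between the clones. An exact permutation test on 2 against 2 libraries cannot go below p = 0.33, the two-sided value obtained here.

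The reads that SAFB DKO libraries did not have in listed intervals lay mainly in exons. Outside the filtered list, untranslated regions (UTRs) took 10.2% and 9.78% of the reads in EZH2 KO 1 and 2 and 18.8% ± 1.13 (SD, n = 2) in SAFB DKO. Exons of noncoding genes took 7.57% ± 0.555 against 16.8% ± 0.287. Coding exons took 24.3% ± 1.24 against 32.6% ± 0.0504. Introns outside the list took nearly the same share in both genotypes, 23.5% ± 0.225 and 24.1% ± 0.257, and so did sequence antisense to genes, 2.79% ± 0.0935 and 2.81% ± 0.706. Intergenic sequence outside the list was lower in SAFB DKO, 2.67% ± 0.0480 against 4.44% ± 0.103. The mitochondrial genome took 0.0670% ± 0.0293 of the reads in EZH2 KO and 0.781% ± 0.0955 in SAFB DKO, a ratio of 11.7. Every one of these contrasts except the antisense share separated the genotypes without overlap, at the smallest p of the exact permutation test, 0.33.

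**Figure D1:**
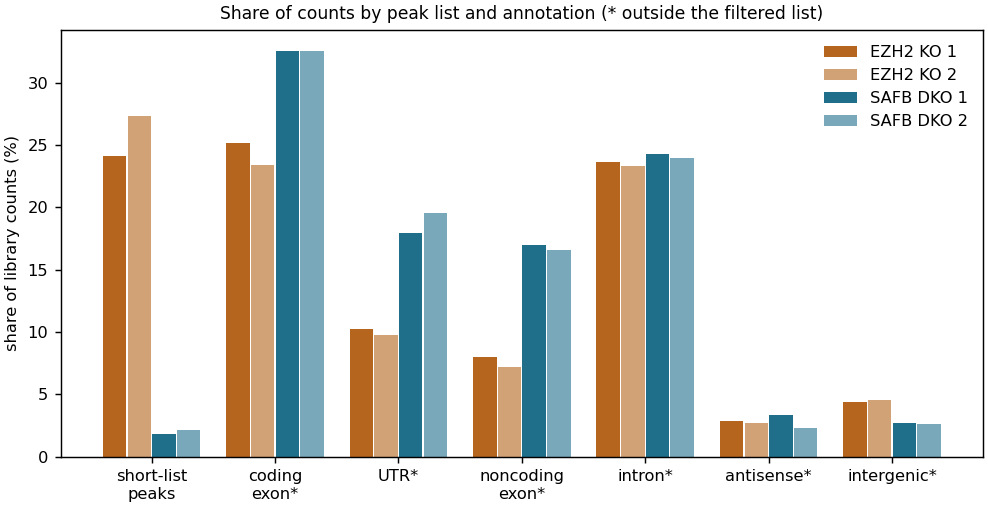
Share of each library's counts (%) in short-list peaks and, outside the filtered list, in 6 annotation classes, with 1 bar per library. The short-list bars stand at 24.1% and 27.3% in EZH2 KO and at 1.84% and 2.12% in SAFB DKO, while coding exon, UTR and noncoding exon bars are taller in SAFB DKO.

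Feature by feature, the short list was lower in SAFB DKO at most of its intervals. Over all 129847 features tested, 29321 (22.6%) were lower and 15774 (12.1%) higher in SAFB DKO at adjusted p under 0.05. The number higher rested on single libraries: it was 8661 without SAFB DKO 1, 8736 without SAFB DKO 2 and 37422 without EZH2 KO 2. Of the 9306 short-list features tested, 8606 (92.5%) were lower and 0 higher by edgeR, with 1 higher at an unadjusted p under 0.05, and by DESeq2 8546 were lower and 1 higher. Without EZH2 KO 2, 7 were called higher. The median log2 difference of the short list was -4.20, with quartiles of -4.89 and -3.49, an 18.3-fold excess in EZH2 KO, beside a median of 0.12 over all tested features. Of the short-list features, 8582 were at least 4-fold and 5368 at least 16-fold lower. In 9187 of them both EZH2 KO libraries lay above both SAFB DKO libraries, in 5 the order was reversed, and in 114 the groups overlapped. A lack of overlap was common with 2 against 2 libraries. Counted by gene sum rather than by feature, both EZH2 KO values were the higher ones in 7304 of all 15218 genes tested and the lower ones in 5679. The short-list counts by fold and by lack of overlap thus have no like share over all features beside them here. The 4 pairs of 1 EZH2 KO and 1 SAFB DKO library gave short-list medians between -3.44 and -3.13 (on log2 of CPM plus 0.5), with an SD of 0.133 over the pairs. The share of called features that were lower depended on the scaling: it was 65.0% here, 55.2% with scaling on all features, 49.1% on library totals, 59.8% with DESeq2 size factors and 87.0% with scaling on coding exons. The corresponding shifts of the median of all features were 0.30, 0.47, 0.17 and -0.63 on the log2 scale, against a short-list median that stayed between -4.83 and -3.72.

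**Figure D2:**
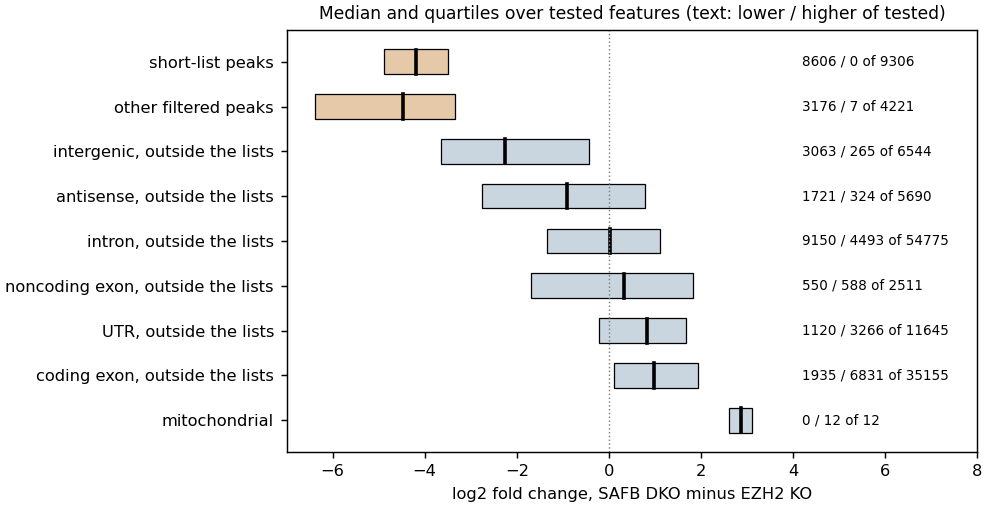
Log2 difference (SAFB DKO minus EZH2 KO) per group of tested features, with the median as a bar, the quartiles as a box, and the number lower, higher and tested at the right. Short-list peaks centre at -4.20 and the other filtered peaks at -4.46, whereas coding exons outside the lists centre at 0.98 and mitochondrial features at 2.86.

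The 700 short-list features that did not pass were mostly weak ones that pointed the same way. Of them 683 had a negative and 17 a positive log2 difference, with a median of -2.19, and their median level was 1.33 CPM against 5.90 CPM for the features called lower. Ordered by level and divided into 4 equal bins, the weakest bin had 1677 of 2327 features lower (72.1%, median -3.67) and the strongest 2326 of 2327 (median -4.39). By length, 177 of 261 features of 75 to 150 bases (67.8%) and 996 of 1002 features over 2400 bases (99.4%) were lower, with medians of -3.29 and -4.33. A further 737 short-list features had too few reads to be tested, with a median of 23 reads over the 4 libraries, and 681 of them had the higher mean in EZH2 KO. The feature with the most positive difference, antisense to a gene at chr17:19422567-19422798, had 0.159 and 0.593 CPM in EZH2 KO against 0.948 and 1.99 CPM in SAFB DKO. That difference of 1.92 did not pass the test, and the feature was picked after its values were seen. Every annotation class of the list was low in SAFB DKO: 5044 of 5286 intronic features, 2052 of 2332 intergenic, 1016 of 1168 antisense, 244 of 257 noncoding exon, 154 of 160 coding exon and 96 of 103 UTR features were lower, with medians from -4.33 in introns to -3.59 in coding exons.

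The short list was spread over many transcripts. Its tested features lay in 2648 genes, of which 1565 held 1 feature and 49 held 10 or more, and in 2405 genes every one was lower. Pde4d, a cyclic AMP phosphodiesterase gene that spans chr13:108449948-109953461, held the most, with 21 of 22 features lower and a median of -4.40. Dpp6, an auxiliary subunit of potassium channels, had 19 of 21 lower, Gphn, the gephyrin scaffold of inhibitory synapses, 17 of 18, and Hs6st3, a heparan sulfate sulfotransferase, 16 of 17. All 15 features of Etl4, of Immp2l and of Rsrc1 were lower. The 10 features of Airn, the imprinted antisense transcript of the Igf2r locus, had the lowest median of these genes, -6.33.

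The features with the most reads that were lower in SAFB DKO lay in Malat1 and in a few very long exons. The features named here and in the next 2 paragraphs were chosen among those called and without overlap between the genotypes, by level or by size of the difference. Malat1, an abundant nuclear RNA of speckles, had 39532 and 62919 CPM in its main feature (chr19:5800677-5802530) in EZH2 KO and 2225 and 2302 CPM in SAFB DKO. The log2 difference was -4.50 (SE 0.20, adjusted p = 1.1e-05), a 22.6-fold excess, and the 2 groups were far apart although the EZH2 KO clones also differed from each other. Without SAFB DKO 2 the difference was -4.45 and no longer called. All of Malat1 took 4.32% ± 1.10 (SD, n = 2) of the EZH2 KO reads and 0.303% ± 0.00570 of the SAFB DKO reads. The exon of Srrm2, a splicing speckle protein, at chr17:23815183-23820606 had 5474 and 4927 CPM against 1523 and 1685 CPM (log2 difference -1.70, SE 0.11, adjusted p = 2.0e-05). The largest exon of Rif1, a replication timing factor, at chr2:52110127-52112982 had 2063 and 2461 CPM against 450 and 572 CPM (-2.15, SE 0.16, adjusted p = 3.3e-05). An exon at chr1:133656791-133660102 shared by Zbed6, Zc3h11a and Gm38394, where reads cannot be assigned to 1 gene, had 2250 and 2772 CPM against 146 and 171 CPM, a 15.9-fold excess in EZH2 KO. An intron feature of Etl4 at chr2:20537705-20542067 had 1658 and 2090 CPM against 66.0 and 60.8 CPM, a 29.6-fold excess. The long exons of Ankrd11 (1408 and 1249 against 694 and 694 CPM) and of Atrx (1158 and 1420 against 579 and 670 CPM) differed less, by -0.94 and -1.04 on the log2 scale. The Xist feature shown above had 1891 and 2496 CPM against 1099 and 1642 CPM (-0.68, SE 0.20, adjusted p = 0.032), and without SAFB DKO 1 or without EZH2 KO 2 it was not called, at -0.34 and -0.38.

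Among the features with the most reads in the other direction were Rn7sk, a feature shared by Rpph1, ribosomal sequence, mitochondrial RNA and coding features of Eef2, Actb and Hsp90ab1. Rn7sk, the RNA that holds the elongation factor P-TEFb inactive, had 1498 and 1481 CPM in EZH2 KO and 26090 and 26684 CPM in SAFB DKO (log2 difference 4.15, SE 0.09, adjusted p = 1.8e-06). The list of structured small RNAs had 3 genes tested, beside 40.1% lower and 27.9% higher over all genes. Of these, Rn7sk and Terc were higher, Terc by 0.90 and not called without SAFB DKO 2 (0.95) or without EZH2 KO 1 (0.39). The third, Lars2, is a protein-coding gene that holds ribosomal RNA-like sequence and not a small RNA. It was lower by -1.57, or -0.46 and not called over features outside the filtered list. The share of Rn7sk in all reads was 0.127% ± 0.00971 (SD, n = 2) against 3.11% ± 0.0366, a ratio of 24.6. The feature at chr14:50807447-50807709 shared by Rpph1, the RNA of ribonuclease P, and Ccnb1ip1 had 821 and 629 CPM against 3854 and 3752 CPM (2.39, SE 0.14, adjusted p = 1.6e-05). Reads on the minus strand of the mitochondrial genome, where mt-Nd6 lies, had 278 and 570 CPM against 3450 and 3828 CPM (3.10, SE 0.29, adjusted p = 1.2e-04). Coding features of Eef2, Actb and Hsp90ab1, which encode elongation factor 2, beta-actin and a cytosolic chaperone, were higher by 1.83, 2.19 and 1.13 on the log2 scale. The Eef2 feature also overlaps Snord37, so its reads cannot be assigned to Eef2 alone. Gm26917 and Gm42418, gene models that overlap ribosomal RNA sequence, were higher by 0.48 and 0.42, and with scaling on coding exons these values were -0.15 and -0.22. Without EZH2 KO 1 the value of Gm42418 was 0.30 and not called. The share of Gm26917 was 4.49% ± 0.550 against 8.69% ± 0.123, in libraries from which ribosomal RNA had been depleted.

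**Figure D3:**
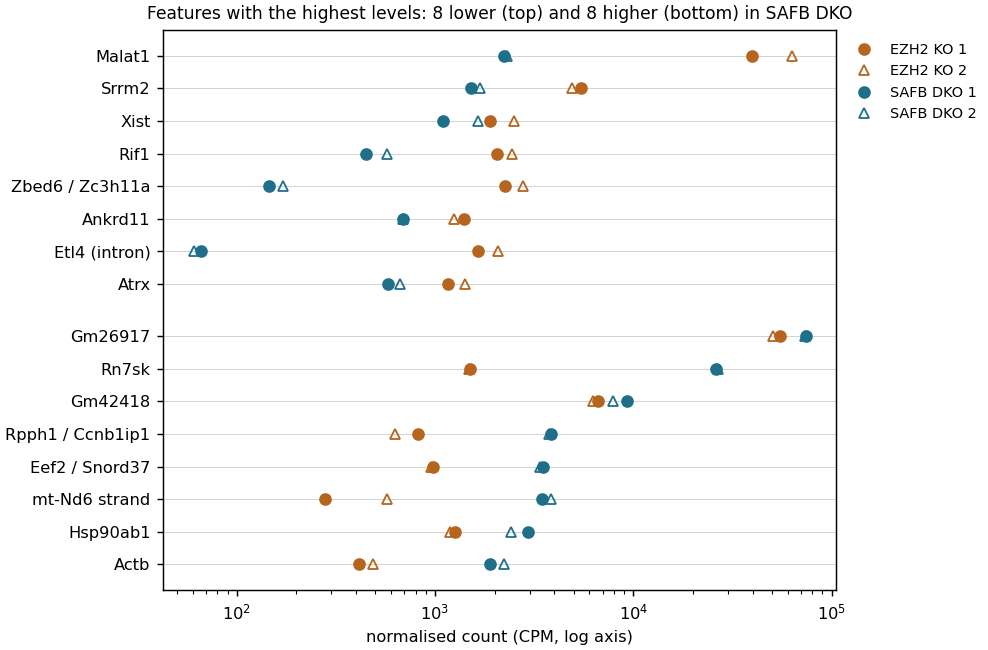
Normalised count (CPM, log axis) in each of the 4 libraries for the 8 features with the most reads that were lower in SAFB DKO (top) and the 8 that were higher (bottom). Malat1 and the Etl4 intron show gaps of over 1 power of 10 towards EZH2 KO, and Rn7sk stands at 1498 and 1481 CPM in EZH2 KO against 26090 and 26684 CPM in SAFB DKO.

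The largest differences, apart from the deleted genes, were in introns and between genes. An intron feature of Gabrg3, a GABA receptor subunit, at chr7:57240855-57242637 had 14.5 and 26.4 CPM in EZH2 KO and 0 and 0.108 CPM in SAFB DKO. An intron feature of Atrnl1 at chr19:58090238-58093192 had 18.3 and 23.0 CPM against 0.135 and 0 CPM. An intergenic feature at chr2:10597219-10599048, 1966 bases from Sfmbt2 on the same strand, had 27.6 and 43.4 CPM against 0.180 and 0.0538 CPM, a log2 difference of -8.08. Another intergenic feature, at chr8:52319597-52320654, had 18.2 and 21.8 CPM against 0.0451 and 0.0538 CPM, a difference of -8.42. In each of these the SAFB DKO libraries held between 0 and 4 reads. Among the features higher in SAFB DKO, an intron feature of Gm41031 at chr13:97811745-97813422 had no reads in EZH2 KO and 20.7 and 19.9 CPM in SAFB DKO, at least 88.1-fold higher. A feature antisense to Snhg14 at chr7:59314735-59315670 had 0.159 and 0.889 CPM against 25.9 and 17.2 CPM (5.31 on the log2 scale). On chromosome Y, an intergenic feature at chrY:90737422-90737667 had 0.956 and 0.889 CPM against 47.1 and 21.6 CPM (5.21). An intron feature of Gm47283 at chrY:90813444-90813804 had 0.797 and 2.67 CPM against 59.0 and 38.8 CPM (4.79). The strand opposite Rn7sk had 8.44 and 9.63 CPM against 434 and 122 CPM, 4.94 on the log2 scale, and this call was lost without EZH2 KO 1 (4.69) and without EZH2 KO 2 (5.13).

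Listed peaks and the remaining features of the same annotation class moved to different degrees. Of 23628 features in the filtered but not the short list, 4221 had enough reads to be tested. Of these 4221, 3176 were lower and 7 higher, with a median of -4.46. The median was -4.27 when groups without reads are set to their bound of 3 reads. With no read filter, 1690 of 8299 intergenic and 1622 of 8330 intronic features of this kind were lower (medians -3.09 and -2.85). Of the coding-exon ones 13 of 373 were lower (median 0.17). The values of the 4221 thus hold only for features with enough reads. Among reference features, 17539 of 116320 were lower and 15767 higher, with a median of 0.36. Coding exons leaned to SAFB DKO (1935 lower and 6831 higher of 35155, median 0.98) and so did UTRs (1120 lower and 3266 higher of 11645, median 0.83). Intergenic features leaned to EZH2 KO even outside the list (3063 lower and 265 higher of 6544, median -2.26), as did antisense features (1721 lower and 324 higher of 5690, median -0.92). Introns divided: 9150 of 54775 were lower and 4493 higher, with a median of 0.03. With scaling on coding exons the coding exons themselves became 2962 lower and 2267 higher (median 0.35), and the intergenic median became -2.89, so the order of the classes held while the sign of the middle ones did not. All 12 tested mitochondrial features were higher.

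Gene sums repeated the division by transcript type and length. Of 15218 genes tested, 6107 (40.1%) were lower and 4240 (27.9%) higher in SAFB DKO, with a median of -0.28. Genes called lower were 59.0% of all called, and 50.9%, 46.0%, 54.3% and 79.1% with scaling on all features, library totals, DESeq2 size factors and coding exons. Long intergenic RNAs (403 lower and 27 higher of 557), antisense RNAs (306 and 12 of 451) and bidirectional promoter RNAs (46 and 0 of 59) had medians of -2.62, -2.62 and -3.46. Processed pseudogenes, whose reads may belong to the parent message, had 271 lower and 515 higher of 1211. Among protein-coding genes the median went from 0.43 in those up to 5 kb (274 lower and 449 higher of 1198) to 0.03 at 20 to 50 kb and to -1.84 above 200 kb (594 lower and 9 higher of 725). Longer genes also held more filtered-list peaks. Genes with no such peak had a median of 0.37 (2521 lower and 3910 higher of 10265), and genes with 10 or more had 291 lower and 0 higher of 296, with a median of -2.40.

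Genes with the lowest ratios beyond the deleted ones were mostly noncoding or long. Gm25487 had 296 and 341 CPM in EZH2 KO and 1.62 and 2.37 CPM in SAFB DKO, a log2 difference of -7.33. These reads came from 1 feature of 3148 bases that overlaps the gene but is classed as intergenic. They may therefore belong to a wider stretch rather than to Gm25487 itself, which was not tested. Meis2, a homeobox gene, had 37.9 and 47.6 CPM against 0.271 and 0.538 CPM (-6.73), and Gabrg3 107 and 140 CPM against 1.80 and 1.99 CPM (-6.02). The noncoding gene Gm17690 had 179 and 189 CPM against 3.47 and 3.44 CPM (-5.73). At the other end, mt-Nd1 had 34.3 and 75.9 CPM against 421 and 624 CPM (3.24), Ftl1, ferritin light chain, 15.9 and 12.7 CPM against 122 and 126 CPM (3.11), and Sod1, cytosolic superoxide dismutase, 7.01 and 7.41 CPM against 66.3 and 58.5 CPM (3.11). The genes were chosen for size among those without overlap between genotypes, so the lack of overlap is given by the choice. Gm11408 had a larger difference, 4.05, but lost its call without SAFB DKO 1 (3.99) and without SAFB DKO 2 (4.25).

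None of the core PRC2 genes was called lower in SAFB DKO, while 2 accessory genes were. Of 6 core genes tested, 0 were lower and 4 higher by edgeR, one of them the deleted Ezh2, beside 40.1% lower and 27.9% higher over all genes. Suz12 had 301 and 419 CPM in EZH2 KO and 384 and 383 CPM in SAFB DKO, so the groups overlapped (log2 difference 0.09, adjusted p = 0.629). Eed had 40.9 and 66.1 CPM against 70.4 and 71.5 CPM and did not pass either (adjusted p = 0.115). Without EZH2 KO 2, Suz12 was called higher at 0.44 and Eed at 0.88, and with scaling on coding exons Suz12 stood at -0.55. Rbbp4 had 34.7 and 49.8 CPM against 188 and 204 CPM, a log2 difference of 2.21, and Rbbp7 and Ezh1 were higher by 1.60 and 1.00, of which Ezh1 was not called with scaling on coding exons (0.36). Of 7 accessory genes tested, Mtf2 and Lcor were lower and Phf19 and Epop higher. Epop had 209 and 183 CPM against 249 and 290 CPM (0.46, adjusted p = 0.0149), lost its call without SAFB DKO 2 (0.42) and without EZH2 KO 1 (0.39), and stood at -0.18 with scaling on coding exons. Jarid2 had 930 and 961 CPM against 934 and 1008 CPM (0.04, adjusted p = 0.782), or -0.60 with scaling on coding exons. Mtf2 had 625 and 713 CPM against 266 and 250 CPM (-1.38, adjusted p = 5.6e-06), with exons higher by 0.62 and introns at 556 and 641 CPM against 162 and 137 CPM. Lcor, whose locus also encodes a PALI subunit of PRC2, had 190 and 234 CPM against 46.7 and 41.7 CPM (-2.26). Of 24 genes of Polycomb repressive complex 1, 12 were lower and 6 higher, near the 40.1% and 27.9% over all genes, and between 8 and 15 were lower over the scalings. Pcgf5 (-2.79), Bcorl1 (-2.20) and Ring1 (-1.72) were lower, and Pcgf6 (1.62), Pcgf2 (1.56) and Rnf2 (1.29) higher.

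Only some of the developmental genes known as Polycomb targets gave reads. Of 49 listed, 26 had counts and 16 could be tested, of which 6 were lower and 2 higher, against 40.1% lower and 27.9% higher over all genes. Tbx15 had 37.8 and 35.6 CPM in EZH2 KO and 0.406 and 0.430 CPM in SAFB DKO (-6.43), and Olig2 had 59.1 and 38.1 CPM against 3.65 and 5.32 CPM (-3.44). Eomes had 15.3 and 24.0 CPM against 5.32 and 6.13 CPM (-1.78). These 3 transcription factor genes, with Meis2, separated the genotypes without overlap, as did 7304 of all 15218 genes tested in the same direction. Cdkn2a was lower by -2.64 over all its features and stood at 0.045 over those outside the filtered list. Pax6 had 1.27 and 1.33 CPM against 3.43 and 6.51 CPM, higher by 1.92, and lost its call without SAFB DKO 2 (1.47) and with scaling on coding exons (1.28).

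Nuclear long noncoding RNAs, several of which have been studied as partners of PRC2, were mostly lower in SAFB DKO. Of 29 listed genes 23 were tested, with 14 lower (60.9%), 3 higher (13.0%) and a median of -1.02, beside 40.1%, 27.9% and -0.28 over all genes, and over the other scalings 11 to 17 were lower and 1 to 6 higher. The share lower was 72.4% among all long intergenic RNAs tested and 67.8% among antisense RNAs, each with a median of -2.62. The list thus did not stand above these types of noncoding gene. Airn had 1037 and 997 CPM in EZH2 KO against 20.4 and 23.0 CPM in SAFB DKO (log2 difference -5.55, SE 0.15, adjusted p = 1.2e-08). Kcnq1ot1, the antisense transcript of another imprinted cluster, had 1444 and 1052 CPM against 82.7 and 106 CPM (-3.73, SE 0.19, adjusted p = 1.4e-07). Malat1 as a whole had 39775 and 63134 CPM against 2529 and 2612 CPM (-4.32, SE 0.20, adjusted p = 1.2e-07). Tsix, the antisense RNA of Xist, had 41.7 and 73.8 CPM against 2.26 and 3.71 CPM (-4.28). In these 4 RNAs both EZH2 KO values lay far above both SAFB DKO values, although the EZH2 KO clones differed visibly from each other in Malat1 and Tsix.

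Other RNAs of the list differed less or not at all. Xist had 4176 and 5734 CPM against 1734 and 2428 CPM (-1.25, SE 0.18, adjusted p = 1.2e-04). Tug1 had 239 and 336 CPM against 85.1 and 90.6 CPM (-1.71), Pvt1 860 and 947 CPM against 372 and 383 CPM (-1.26), and Platr10 145 and 177 CPM against 45.4 and 47.0 CPM (-1.80). Neat1, the scaffold of paraspeckles, had 15.9 and 14.7 CPM against 6.86 and 7.26 CPM (-1.12) and lost its call without SAFB DKO 1 (-0.999) and without SAFB DKO 2 (-1.08). The maternally expressed imprinted RNAs of the Dlk1 cluster were not lower: Meg3 had 357 and 311 CPM against 416 and 406 CPM (0.30, adjusted p = 0.0627), and was called higher under 6 alternatives, among them library totals (0.77) and scaling on all features (0.60). Rian was higher, with 150 and 145 CPM against 275 and 296 CPM (0.95, or 0.32 and not called with scaling on coding exons). Firre had 203 and 195 CPM against 142 and 176 CPM (-0.33) and did not pass, but was called without EZH2 KO 1 (-0.46), with scaling on coding exons (-0.97) and at a mean of at least 50 reads (-0.75). Snhg11 was higher, at 15.9 and 16.7 CPM against 57.9 and 45.7 CPM (1.66).

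Within 1 RNA the features did not all differ alike. Along Airn, 27 of 29 tested features were lower, with a median of -3.81 over the first 15 kb and of -6.12 between 15 and 90 kb. Along Kcnq1ot1, 20 of 28 were lower: 3 of 3 in the first 8 kb (median -2.41), 0 of 7 between 8 and 18 kb (median -0.74) and 17 of 18 between 18 and 72 kb (median -4.93). These segment bounds were drawn after the values were seen and are a description. Along Xist the feature at 1.2 kb from the start differed by -2.16, those at 9.45, 12.5 and 14.4 kb by -1.85, -1.57 and -1.33, and the one at 16.5 kb, shown above, by -0.68. The last value was called only under the scaling used here and that on coding exons. Malat1 had a second feature 6.24 kb from its start, with 243 and 215 CPM in EZH2 KO against 304 and 310 CPM in SAFB DKO, 0.42 on the log2 scale and not called. Most of the 109 tested features of Pvt1 (16 lower, 3 higher, median 0.10) and of the 40 of Firre (4 lower, 6 higher, median 0.56) did not pass the test.

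Introns tended to lie below the exons of the same gene. Summed by part, 2716 of 12794 exon parts were lower and 4992 higher, with a median of 0.59, while 4613 of 10584 intron parts were lower and 1683 higher, with a median of -0.64. In 6337 of 8678 genes with both parts (73.0%) the intron value lay below the exon value. The difference of the parts was tested as an interaction in 8021 genes: the intron was lower relative to the exon in 3575 (44.6%) and higher in 722 (9%), a comparison within a gene that the scaling between libraries hardly touches (3559 to 3589 lower over the scalings). Without SAFB DKO 1 the introns were relatively higher in 443 genes. By the calls of the separate parts, 1147 genes had both parts higher and 923 both lower, 953 had exons higher and introns lower, and 96 the reverse.

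Some genes with high intron levels had parts called in opposite directions. Hnrnpl, a splicing regulator, had exon levels of 45.4 and 48.3 CPM in EZH2 KO against 148 and 141 CPM in SAFB DKO, and intron levels of 1129 and 1283 CPM against 317 and 318 CPM. The exon part was higher by 1.62 and the intron part lower by -1.93, a difference of -3.55 (SE 0.16, adjusted p = 7.1e-09). Cnot1, the scaffold of the CCR4-NOT deadenylase, had exons at 103 and 124 CPM against 414 and 436 CPM and introns at 799 and 878 CPM against 241 and 267 CPM. Rif1 was the reverse, with exons at 2127 and 2560 CPM against 555 and 742 CPM (-1.85) and introns at 33.9 and 49.4 CPM against 79.0 and 106 CPM (1.15). In Tet1, a 5-methylcytosine dioxygenase, and Etl4 both parts were lower, at -1.23 and -1.44 and at -2.16 and -2.93. In Gpi1, Pou5f1 and Trim28 both were higher.

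**Figure D4:**
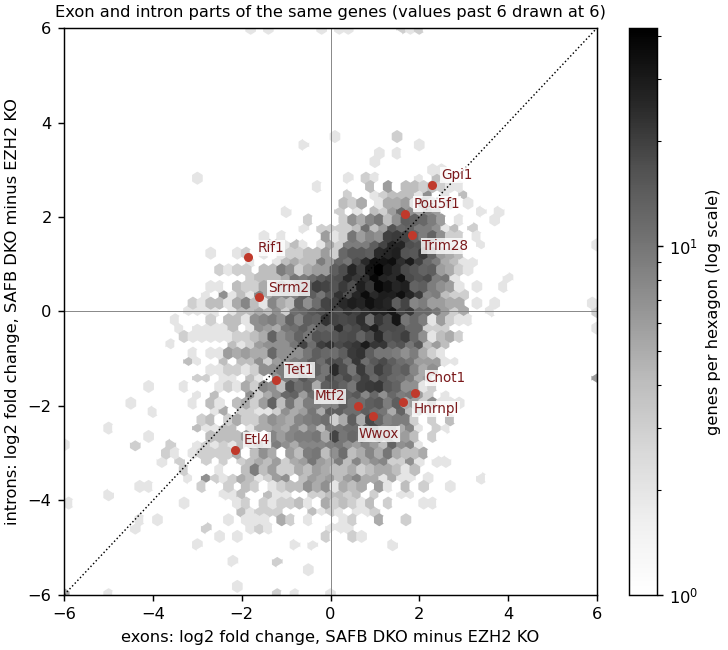
Log2 difference (SAFB DKO minus EZH2 KO) of the intron part against that of the exon part of each gene with both parts tested, as hexagons shaded by the number of genes on a log scale, with named genes as dots. In 6337 of 8678 genes the intron value lies below the exon value, and Rif1 and Srrm2 lie on the other side of the diagonal.

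Long exons stood apart from short ones. Feature length was set by the calling on wild-type precipitates, so a long feature is also one that was covered over its length there. Among reference coding-exon features, 38 of 7290 with 75 to 150 bases were lower and 1212 higher, with a median of 1.25, whereas 292 of 414 over 2400 bases were lower and 38 higher, with a median of -1.40. Features of at least 1000 bases held 64.0% and 63.9% of all coding-exon reads in EZH2 KO 1 and 2, and 34.9% and 35.8% in SAFB DKO 1 and 2. The same held inside genes: in 515 of 560 genes with a coding feature of at least 1000 bases and 3 or more under 300 bases (92.0%), the long feature had the lower value, with medians of -0.94 for long and 0.83 for short features. In Rif1 the long exon differed by -2.15 and the 11 short ones by a median of 1.20, but most of the short ones were weak and not called. The short feature at chr2:52082660-52082826 had 0 and 1.19 CPM in EZH2 KO against 3.74 and 5.27 CPM in SAFB DKO. A weak feature could pass the read filter through the genotype where it was higher, so medians of short features depend on that filter. Over all reference coding exons the median was 0.98 with the filter used and 0.41 at a mean of at least 50 reads. The long feature of Atrx differed by -1.04 against a median of 0.23 over 19 short ones. In Srrm2 the values were -1.70 and 0.26 over 3 short ones, and in Tet1 -1.66 over 3 long and 0.38 over 4 short ones. Ankrd11 showed the smallest gap of the named genes, -0.94 against -0.31, and its short feature of 219 bases was called at -1.58, below the long one. In UTRs over 2400 bases the split was nearly even, 195 lower and 239 higher of 675, with a median of 0.25.

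**Figure D5:**
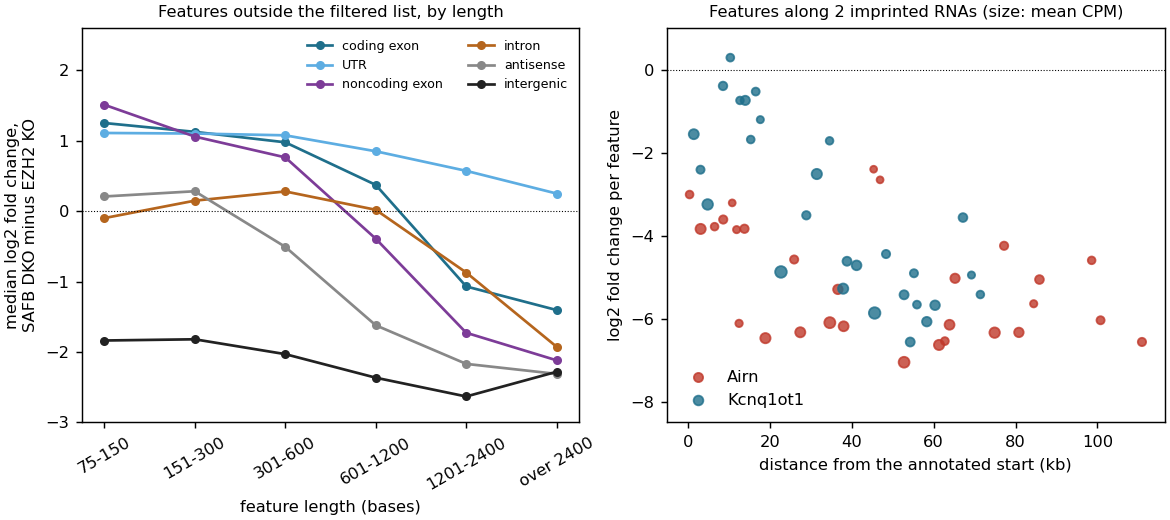
Left, median log2 difference (SAFB DKO minus EZH2 KO) of features outside the filtered list by feature length (bases) and annotation class; right, the log2 difference of each tested feature of Airn and Kcnq1ot1 against its distance from the annotated start (kb), with point size by mean CPM. Coding exons go from 1.25 at 75 to 150 bases to -1.40 above 2400 bases, and the 7 features of Kcnq1ot1 between 8 and 18 kb have a median of -0.74 against -4.93 between 18 and 72 kb.

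Long coding exons that were lower had more purines than those that were not. Of coding-exon features of at least 1000 bases whose sequence could be read, 692 were lower, 268 not called and 21 higher. Their median purine content was 52.9%, 50.4% and 50.2%, and their GC content 48.6%, 54.0% and 54.6%. GAAGA occurred 3.38, 2.72 and 2.23 times per kb and AGAAG 3.60, 2.95 and 1.76 times. Of the long coding exons printed above, the Srrm2 window held 5 matches of these motifs and the Rif1 window 1. GAGGA, also made of purines, showed no such order in these coding exons, at 2.61, 2.80 and 3.08 per kb. In UTRs of that length purine content was 50.2%, 48.8% and 47.8%, and GAGGA did follow the order, at 1.98, 1.75 and 1.58 per kb. Features classed as intronic had 52.0%, 49.5% and 47.2% purines and GAGGA at 2.18, 1.90 and 1.56 per kb. In noncoding exons of that length (145 lower, 77 not called, 42 higher) purine content was 52.7%, 51.2% and 53.2% and GAAGA 2.90, 2.97 and 3.28 per kb, so the order was not found there. Of the windows of 300 bases, with all annotation classes pooled, 71.3% of 2052 from lower features and 55.1% of 1803 from higher ones held GAAGA or AGAAG. Sequence could be read for 16187 of the 129847 tested features (12.5%), those wholly inside an exon of the full annotation, and for 283 of the short list. Classes used the basic annotation, so some of these features were classed as intronic (212 lower, 1325 not called and 145 higher). Intron sequence outside such exons is not represented. These values are a description without a test.

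RNA-binding proteins of the nucleus were mixed at the gene level. The counts below stand beside 40.1% lower and 27.9% higher over all genes. Of 18 nuclear matrix and paraspeckle genes, 2 were lower and 11 higher (3 and 5 with scaling on coding exons). Acin1, a splicing-associated SAP domain protein, had 1031 and 936 CPM in EZH2 KO against 354 and 315 CPM in SAFB DKO (-1.56), and Hnrnpu, the scaffold attachment factor SAF-A, 561 and 614 CPM against 813 and 889 CPM (0.53, or -0.10 with scaling on coding exons, and 0.31 and not called without EZH2 KO 1). Of 24 hnRNP genes 3 were lower and 20 higher (3 and 12), among them Pcbp2 with 66.6 and 72.5 CPM against 475 and 498 CPM (2.81) and Hnrnpab with 96.9 and 93.7 CPM against 462 and 435 CPM (2.24). Hnrnpl, at 1175 and 1332 CPM against 465 and 459 CPM, was 1 of the 3 that were lower (-1.44). Of 29 SR and related splicing genes 4 were lower and 18 higher (10 and 10): Srrm2 (6036 and 5410 against 1923 and 2091 CPM, -1.51), Pnn (-1.39), Son (634 and 647 against 321 and 380 CPM, -0.87) and Srsf4 (-0.68) were the lower ones. Prpf8, the core spliceosome protein, had 172 and 163 CPM against 873 and 746 CPM (2.27).

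Messages of the ribosome, histones, glycolysis, chaperones and the mitochondrial genome were mostly higher in SAFB DKO, beside 27.9% over all genes. The share higher was 37.5% over protein-coding genes up to 5 kb and 37.8% over those of 5 to 20 kb. Of 66 ribosomal protein genes 47 were higher and 3 lower, of 52 histone genes 46 and 1, of 19 glycolysis genes 18 and 0, of 23 chaperone genes 19 and 1, and of 6 mitochondrial genes 6 and 0. With scaling on coding exons the numbers higher were 32, 33, 12, 11 and 6. Rplp0 had 68.7 and 65.2 CPM in EZH2 KO against 342 and 348 CPM in SAFB DKO (2.37), and Aldoa, a glycolytic aldolase, 106 and 86.0 CPM against 763 and 585 CPM (2.81). Pkm, pyruvate kinase, had 269 and 253 CPM against 1194 and 984 CPM (2.06), and the linker histone gene Hist1h1d 234 and 219 CPM against 415 and 458 CPM (0.95, or 0.31 and not called with scaling on coding exons). The mitochondrial gene mt-Nd5 had 57.2 and 109 CPM against 523 and 592 CPM (2.74). Exceptions were Rps15a, lower with 434 and 523 CPM against 134 and 140 CPM (-1.81), and Hsp90b1, lower with 520 and 608 CPM against 340 and 366 CPM (-0.68, not called on library totals). Ribosomal protein and histone genes have near-identical copies, so their counts are uncertain.

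Genes with very long introns were mostly lower. Of 63 listed neuronal and long-intron genes 31 were tested, of which 24 were lower and 0 higher, with a median of -2.19, and with scaling on coding exons 28 were lower. The 77.4% lower stand beside 40.1% over all genes and 81.9% over protein-coding genes above 200 kb, so the list was near its length class. Over features outside the filtered list alone, 18 of 29 were lower and 1 higher. Wwox, an oxidoreductase gene in a common fragile site, had 2091 and 2309 CPM in EZH2 KO against 464 and 498 CPM in SAFB DKO (-2.19), and Cacna1a, a calcium channel, 1112 and 1123 CPM against 220 and 243 CPM (-2.27). Auts2, also a member of Polycomb complexes, had 443 and 426 CPM against 231 and 244 CPM (-0.87), or -0.44 and not called over its strongest feature alone. Macrod2 and Gria3 differed by -3.56 and -3.48.

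Markers of embryonic stem cells were present in all 4 libraries, and markers of other lineages were also found, at lower summed levels. The summed level of 9 tested stem cell markers was 1165 and 1150 CPM in EZH2 KO and 1639 and 1669 CPM in SAFB DKO, with 6 higher and 3 lower, beside 27.9% and 40.1% over all genes. Pou5f1, the stem cell factor OCT4, had 107 and 82.4 CPM against 326 and 325 CPM (1.78) and Esrrb 292 and 298 CPM against 463 and 456 CPM (0.64, not called with scaling on coding exons), while Fgf4 was lower, with 279 and 271 CPM against 153 and 187 CPM (-0.70, not called on library totals). In the wider list of 38 pluripotency genes 14 were lower and 20 higher, shares of 36.8% and 52.6%. Tet1 (3391 and 3356 against 1366 and 1473 CPM, -1.25) and Trim28 (302 and 292 against 1005 and 1087 CPM, 1.82) lay on opposite sides, and Sall4 (633 and 613 against 569 and 659 CPM, adjusted p = 0.893) did not pass. Summed fibroblast markers stood at 8.44 and 3.71 CPM against 11.1 and 7.58 CPM with 3 of 8 tested and 0 called, by edgeR. Primitive endoderm markers stood at 281 and 251 CPM against 226 and 229 CPM, with 1 of 5 lower, Col4a1 (-0.72), which lost its call without EZH2 KO 1 (-0.41) and without either SAFB DKO library (-0.59 and -0.69). Neural markers stood at 186 and 135 CPM against 74.2 and 75.2 CPM, with Nes (-0.76) and Olig2 lower and Pax6 higher of 3 tested. Mesoderm markers stood at 19.6 and 28.5 CPM against 11.4 and 10.3 CPM, with Eomes lower and Kdr higher of 3 tested. Kdr had 0 and 0.148 CPM against 2.44 and 1.56 CPM and was not called without SAFB DKO 1. The part of these lineage markers in the other results was not tested. The column names of the EZH2 KO libraries follow another pattern than those of the SAFB DKO libraries, and the labels give no sequencing run, so the genotype and a difference of run cannot be told apart.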

How the data were processed

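RIP-seq libraries of 2 SAFB DKO and 2 EZH2 KO clones were compared. Per the file headers, the deposited counts are whole reads per interval from featureCounts version 2.0.3 in reverse-stranded mode, so reads of a gene and of its antisense partner are counted apart. The rate of reads assigned to the wrong strand was not measured. The build is mm10, per the submitters' processing notes. The aligner and peak caller are not given in the sources used here. Libraries were made after RNA clean-up with a kit that depletes ribosomal RNA, with an ERCC spike-in that is not analysed here, per the labels' protocols. The deposited interval lists give no measurement beyond interval length in bases. A further 3 value columns that match no sample were not used.

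Features were classed with the basic set of GENCODE M21, by largest overlap on their strand. Counts were tested with edgeR version 4.0.16 (R version 4.3.3), robust quasi-likelihood, after filterByExpr, with trimmed mean (TMM) scaling on features outside the filtered list and a threshold of adjusted p under 0.05 (Benjamini-Hochberg). Gene values sum features that overlap exactly 1 gene on their strand, by any number of bases. Exon and intron parts were tested by an interaction term. Where a group had 0 reads, a floor of 3 reads over the group gives a bound. Scripts were tested on simulated data. Totals of 7050832 to 18738499 reads leave counting error small beside the spread of clones for strong features; p-values rest on 2 clones a group.

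The named features are the 8 with the highest mean CPM and the 6 with the largest difference (mean CPM at least 10) in each direction. The named genes are those with the largest difference among the 10 most extreme in each direction (mean CPM at least 20), up to 4 of the most abundant genes of each list, and all of the SAFB family, PRC2 and noncoding RNA lists; further members named were chosen after their values were seen. The members and lists were chosen with earlier results of these data known. Alternatives were 4 other scalings, 2 other filters, DESeq2 version 1.42.0, a 7-library fit, a minimum fold of 1.5, other gene sums and each library left out.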

Additional observations from a re-analysis of the deposited data

How the results depend on the processing

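The short-list median stayed negative under every alternative tried: -3.90 with TMM over all features, -3.72 on totals, -4.03 with DESeq2 size factors, -4.83 on coding exons, -3.94 without a filter, -4.75 at a mean of 50 reads, and -4.42 to -3.96 with 1 library left out. Short-list features lower numbered 3882 at a mean of 50 reads and 7943 to 9096 with 1 library left out; those higher were 1 with TMM over all features, on totals and by DESeq2, 3 without a filter, 2 in the 7-library fit and 0 to 7 with 1 library left out. Over all features, 12859 were lower at a mean of 50 reads and 44632 in the 7-library fit, and 25959 were higher on totals, 5370 on coding exons, 7029 at a mean of 50 reads, 31791 in the 7-library fit and 8661 to 37422 with 1 library left out. Genes higher were 2075 on coding exons and 2643 at a mean of 50 reads. With 1 library left out, genes lower ranged from 4822 to 6487 and introns higher than exons from 443 to 837. The short-list share ratio was 12.1 to 13.97. The purine difference between lower and higher features, 2.97 percentage points, was 3.67 over their central 300 bases.

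Signs turned on coding-exon scaling for Gm26917 (-0.15), Gm42418 (-0.22), Suz12 (-0.55), Jarid2 (-0.60), Epop (-0.18), Aebp2 (-0.49), Hnrnpu (-0.10), Srrm1 (-0.61), Ddx17 (-0.11), Hist1h1b (-0.16), Slc2a1 (-0.048), Hspa8 (-0.012) and Sparc (-0.50). At a mean of 50 reads they turned for Gm42418 (-0.0046), Jarid2 (-0.38) and Srrm1 (-0.39). With the strongest feature per gene they turned for Jarid2 (-0.96), Cbx7 (0.85) and Firre (0.99), outside the filtered list for Malat1 (0.42), Ftx (0.41) and Cdkn2a (0.045), and on totals for Sall4 (0.45). The causes were not tested, except that fewer features enter the stricter filter. With 1 library left out, the lone clone is assumed to vary like the other genotype. Of 147 named results, 88 kept direction and call throughout. No paired analysis was possible because both SAFB DKO labels carry the number 1, so the groups share fewer than 2 numbers.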

Other observations

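A stretch of chromosome 3 that holds Gm25487, Gm40040 and Platr4, noncoding genes, was low in SAFB DKO over most of its length. Of 55 tested features within 100 kb of Gm25487, 43 were lower and 0 higher by edgeR, and 36 of the lower ones lay outside the filtered list. Beside this stand 22.6% lower over all features and 3063 of 6544 lower among reference intergenic features. The lower features spanned chr3:41349355-41524540 with a median of -5.30. The end of this span rests on 1 intron feature of 2400006E01Rik (-1.60, adjusted p = 0.038). The minus-strand features from 41509336 to 41523193 were not called, so the nearest lower feature before it ended at 41505027. The summed level of all 55 features was 2541 and 2913 CPM in EZH2 KO 1 and 2 against 100 and 103 CPM in SAFB DKO 1 and 2. The stretch was chosen because Gm25487 had the lowest ratio among genes not deleted and with a mean of at least 20 CPM, so its values are a description.

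Reference features near short-list peaks were lower more often than those farther away. Within 5 kb of a short-list peak on the same strand, 653 of 1000 intergenic features (65.3%) were lower, against 42.8% beyond 500 kb. For introns the shares were 53.3% and 13.2%, and for coding exons 9.60% and 5.81%. Features close to a peak may be pieces of the same transcript, which was not tested. Coding-exon features on chromosome 11 had a median of 1.27, against 0.76 to 1.09 on the other nuclear chromosomes.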
